A study of Mus musculus with 6 samples.

Results

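The 9 genes described here encode the proteins that coat, fuse or build lipid droplets: 5 perilipins (*Plin1* to *Plin5*), 2 CIDE genes (*Cidea* and *Cidec*), seipin (*Bscl2*) and FIT2 (*Fitm2*). They were chosen by gene symbol from the 54532 genes in the deposited count table, and all 9 were among the 18689 genes that passed the filter on low counts (at least 0.5 CPM, the count scaled to a common library total, in at least 1 library). RNA came from lungs of untreated mice at 2 months old, 3 WT and 3 *ISM1*-/- (labelled ISM1-KO), with 1 library per labelled replicate. The lungs were rinsed free of blood with PBS and homogenised whole, so each library is a mixture of lung cells and of any tissue attached to the organ. WT mice were purchased C57BL/6J animals and *ISM1*-/- mice were bred in-house on that background, so the source of the animals and the genotype cannot be told apart.

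Total counts ranged from 37606133 to 42345042 per library. The targeted gene, *Ism1*, was still counted in the knockout libraries: it measured 82.1, 77.4 and 76.9 CPM in WT replicates 1 to 3 and 65.4, 66.0 and 75.6 CPM in those labelled *ISM1*-/-. The fitted log2 fold change was -0.19 (SE 0.0709, adjusted p = 0.217, edgeR quasi-likelihood test), so its counts did not verify the genotype, and directions below are those between libraries as labelled. Which part of the gene was deleted is not given in the sources used here.

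A lipid droplet is a core of triglycerides and sterol esters inside a single layer of phospholipid, made at the endoplasmic reticulum. Perilipins sit on its surface and control which lipases reach the core, CIDE proteins gather where droplets touch and pass lipid from the smaller to the larger, and seipin and FIT2 act where the droplet leaves the endoplasmic reticulum. Fat cells hold a coat of PLIN1 and PLIN4 with CIDEC, brown fat adds CIDEA, and PLIN5 belongs to tissues that burn fatty acids such as heart. PLIN2 and PLIN3, seipin and FIT2 are made in most cells, and in the lung PLIN2 is known as the coat of the droplets of lipofibroblasts, the fibroblasts that store lipid beside the alveoli.

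The genes known from fat cells were lower in lungs labelled *ISM1*-/-, whereas no broadly expressed gene passed the test. *Plin1* stood at 27.2% of its WT mean, *Plin4* at 48.1% and *Cidec* at 53.7%, and *Plin2*, the broad coat gene, stood at 99.3%. Of the 4 adipocyte-restricted genes (*Plin1*, *Plin4*, *Cidea*, *Cidec*), 3 were lower at an adjusted p under 0.1, compared with 3.34% of all genes tested, and 2 of these (*Plin1* and *Plin4*) also changed at least 2-fold, compared with 0.284% of all genes. None of the 4 broadly expressed genes (*Plin2*, *Plin3*, *Bscl2*, *Fitm2*) nor *Plin5* passed the adjusted p. No gene of the 9 was higher at an adjusted p under 0.1, compared with 1.38% of all genes. The median log2 fold change was -1.47 over the adipocyte-restricted genes and -0.13 over the broadly expressed genes, beside 0.0043 over all genes tested. The first of these medians includes *Cidea* at -1.96, which did not pass and was -0.79 without WT replicate 1. In whole lung, fewer cells of a type and less RNA per cell cannot be told apart.

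**Figure D1:**
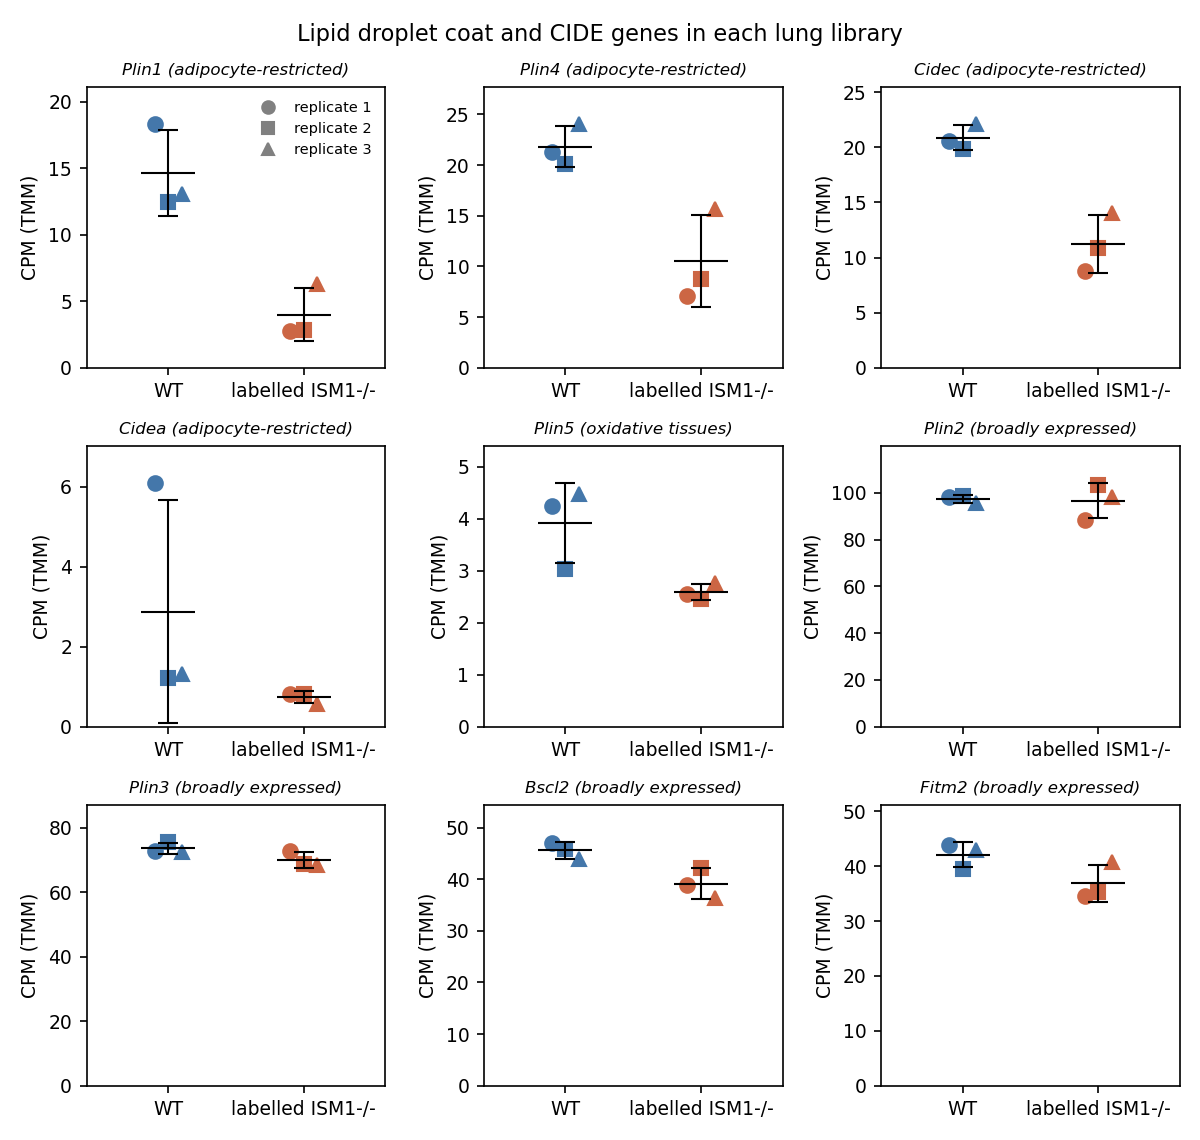
Level of each of the 9 genes in each library, in CPM scaled by TMM (y axis, from 0), for 3 WT libraries (blue) and 3 libraries labelled ISM1-/- (orange). Marker shapes give the replicate number and bars the mean and SD; the highest *Plin1* value labelled ISM1-/- was 6.27 CPM and the lowest WT value 12.5 CPM, while the *Plin2* values of the genotypes overlapped.

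*Plin1* encodes the main droplet coat of fat cells, which holds lipolysis in check until hormone signals release it. The gene lies on the minus strand of chromosome 7 (GRCm38, chr7:79720218-79732903, ENSMUSG00000030546). It measured 18.3, 12.5 and 13.1 CPM in WT replicates 1 to 3 and 2.80, 2.84 and 6.27 CPM in the libraries labelled *ISM1*-/-. The genotypes did not overlap, replicate 1 was the highest WT library, and replicate 3 was the highest labelled *ISM1*-/-. The means were 14.6 ± 3.23 and 3.97 ± 1.99 CPM (SD, n = 3 each), and the log2 fold change was -1.88 (SE 0.287, 95% interval -2.52 to -1.24, edgeR quasi-likelihood adjusted p = 0.0163). Without each library in turn, the log2 fold change stayed between -2.37 and -1.68 and the adjusted p between 0.0035 and 0.0762.

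The study also measured *Plin1* by RT-PCR, and its primers show which transcripts that assay could read. Both matched 4 of the 7 *Plin1* transcripts of GENCODE release M 21 exactly and framed a product of 175 bases in each of the 4, among them the transcripts of 1916 and 2817 bases. The RT-PCR values were not analysed here. The primers, 5′ to 3′, are:

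Plin1 forward primer: aagggtgtacagggtgcca

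Plin1 reverse primer: ccttcagttcagaggcgatcttt

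*Plin4*, the perilipin of small, newly made droplets in fat cells, lies on chromosome 17 (chr17:56100591-56109803, minus strand). Its level was 21.3, 20.1 and 24.1 CPM in WT replicates 1 to 3 and 7.12, 8.72 and 15.7 CPM in the libraries labelled *ISM1*-/-. As for *Plin1*, replicate 3 was the highest of the libraries labelled *ISM1*-/-, and all 3 stayed below every WT library. The log2 fold change was -1.06 (SE 0.235, 95% interval -1.58 to -0.53, adjusted p = 0.0492, edgeR). This call did not hold in 4 omissions of a single library. The adjusted p was 0.127 without WT replicate 2, 0.136 without WT replicate 3, 0.137 without *ISM1*-/- replicate 1 and 0.175 without *ISM1*-/- replicate 2. In these 4 settings the genes called over all genes also fell, from 106 to 41, 62, 31 and 38. The log2 fold change of *Plin4* stayed between -1.46 and -0.84 when single libraries were left out. The last 17 bases of *Plin4* overlap *Hdgfl2* on the opposite strand, a gene that measured a mean of 2594 counts with a log2 fold change of 0.04, and how counting treated strand is not given in the sources used here.

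*Cidec*, whose protein joins droplets into the single large droplet of white fat cells, lies at chr6:113424634-113435760 on the minus strand. Its values were 20.6, 19.9 and 22.1 CPM in WT replicates 1 to 3 and 8.76, 10.8 and 14.0 CPM in the libraries labelled *ISM1*-/-. The WT libraries varied by 5.45% (coefficient of variation), the least of the 4 adipocyte-restricted genes, and the genotypes did not overlap. The log2 fold change was -0.90 (SE 0.145, 95% interval -1.22 to -0.58, adjusted p = 0.0186, edgeR), which passed the adjusted p but not the 2-fold minimum. The adjusted p stayed at or below 0.0866 without any single library, and the fold passed 2 without *ISM1*-/- replicate 3 (log2 fold change -1.09).

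*Cidea*, the CIDE gene of brown fat, lies on the plus strand at chr18:67343564-67367794. It measured 6.09, 1.23 and 1.32 CPM in WT replicates 1 to 3 and 0.82, 0.82 and 0.56 CPM in the libraries labelled *ISM1*-/-. WT replicate 1 stood far above the other WT libraries, with 230 counts against 51 in each of them, while the groups still did not overlap. The log2 fold change was -1.96 (SE 0.595, 95% interval -3.29 to -0.63) and did not pass the test (adjusted p = 0.133, edgeR). Without WT replicate 1 it was -0.79 (adjusted p = 0.234), so that library decided the size of the difference. *Cidea* overlaps *B430212C06Rik* on the opposite strand over 540 bases, where the highest count of that gene in any library was 9.

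*Plin5*, the perilipin of oxidative tissues that brings droplets to mitochondria, neighbours *Plin4* on chromosome 17 with 1797 bases between them (chr17:56111601-56117596, minus strand). It measured 4.24, 3.03 and 4.47 CPM in WT replicates 1 to 3 and 2.56, 2.45 and 2.77 CPM in the libraries labelled *ISM1*-/-. Its WT libraries were all above those labelled *ISM1*-/-, by a narrow margin at WT replicate 2. The log2 fold change was -0.59 (SE 0.179, 95% interval -0.99 to -0.19), and it did not pass (adjusted p = 0.131, edgeR).

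The broad coat genes differed little between genotypes. *Plin2* (chr4:86648386-86670060, minus strand) measured 98.0, 98.4 and 95.5 CPM in WT replicates 1 to 3 and 88.5, 103 and 98.1 CPM in the libraries labelled *ISM1*-/-. The difference for *Plin2*, a log2 fold change of -0.01, had a 95% interval from -0.16 to 0.14 (adjusted p = 0.965, edgeR), which leaves out a change as large as the estimate for any adipocyte-restricted gene. *Plin3* (chr17:56277476-56292873, minus strand), the perilipin that moves from the cytosol onto new droplets, measured 72.9, 75.6 and 72.4 CPM in WT and 72.8, 68.8 and 68.3 CPM in the libraries labelled *ISM1*-/-. The log2 fold change of *Plin3* was -0.07 (95% interval -0.20 to 0.05, adjusted p = 0.598, edgeR). The genotypes overlapped in both genes.

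The assembly genes were slightly lower in mean and did not pass the test. *Bscl2* (chr19:8837467-8848683, plus strand), whose human counterpart is mutated in a form of congenital lipodystrophy, measured 47.1, 45.8 and 43.9 CPM in WT replicates 1 to 3 and 38.9, 42.2 and 36.3 CPM in the libraries labelled *ISM1*-/-. Those values did not overlap, and the log2 fold change was -0.22 (SE 0.0717, 95% interval -0.38 to -0.06, adjusted p = 0.160, edgeR). *Fitm2* (chr2:163466379-163472629, minus strand), which hands neutral lipid from the endoplasmic reticulum to the droplet, measured 43.9, 39.6 and 42.9 CPM in WT and 34.6, 35.4 and 40.8 CPM in the libraries labelled *ISM1*-/-. The groups overlapped through WT replicate 2 and *ISM1*-/- replicate 3. The log2 fold change of *Fitm2* was -0.19 (SE 0.0798, 95% interval -0.37 to -0.01, adjusted p = 0.275, edgeR), with an adjusted p of 0.0597 without *ISM1*-/- replicate 3. *Bscl2* overlaps *Gng3* over 1780 bases and *Fitm2* overlaps *2310001K24Rik* over 673 bases, both on the opposite strand, and the highest counts of these partners were 14 and 39. Over all 9 genes, 6 had groups that did not overlap with the libraries labelled *ISM1*-/- lower, compared with 12.3% of all genes tested.

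**Figure D2:**
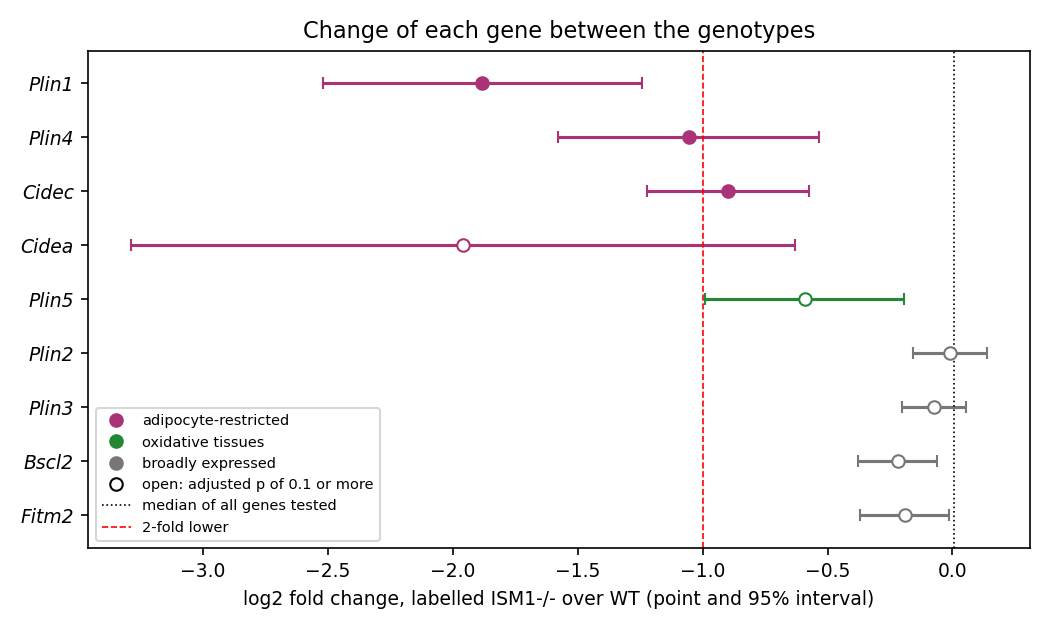
Log2 fold change of each gene, labelled ISM1-/- over WT (x axis), as the edgeR estimate (point) with its 95% interval (bar), coloured by class and filled where the adjusted p was under 0.1. *Plin1*, *Plin4* and *Cidec* are filled, *Cidea* has the widest interval (-3.29 to -0.63), and the 4 broadly expressed genes lie near the dotted median of all genes.

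A ratio of counts within a library does not depend on how libraries are scaled. The ratio of *Plin1* to *Plin2*, the fat cell coat over the broad coat, was 0.187, 0.127 and 0.137 in WT replicates 1 to 3 and 0.032, 0.028 and 0.064 in the libraries labelled *ISM1*-/-. It was 3.87-fold lower there, with no overlap. The two-sided exact permutation test gave p = 0.1, the smallest value that the 10 splits of 3 against 3 allow. Since *Plin1* alone separated the genotypes and *Plin2* hardly differed, this ratio is not evidence apart from *Plin1*. With *Plin3* as the denominator the difference was -1.89 on the log2 scale, beside -1.95 with *Plin2*.

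Among the fat cell genes, the ratios were not all the same in both genotypes. *Plin1* over *Adipoq*, the fat cell hormone adiponectin, was 1.24, 1.20 and 1.09 in WT and 1.07, 1.32 and 0.965 in the libraries labelled *ISM1*-/-, so the ranges overlapped. *Cidec* over *Plin1* was 1.12, 1.59 and 1.69 in WT and 3.13, 3.79 and 2.23 in the libraries labelled *ISM1*-/-, higher in each of those. *Plin4* over *Plin1* was likewise 1.16, 1.61 and 1.84 against 2.54, 3.06 and 2.49. *Cidec* and *Plin4* counts were thus lower by a smaller factor than *Plin1* counts. *Cidea* over *Plin1* was 0.333 in WT replicate 1 and near 0.1 in WT replicates 2 and 3 (0.0991 and 0.102), and in the libraries labelled *ISM1*-/- it was 0.297, 0.290 and 0.0916. These ratios were chosen with the gene values known and are given without a test.

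**Figure D3:**
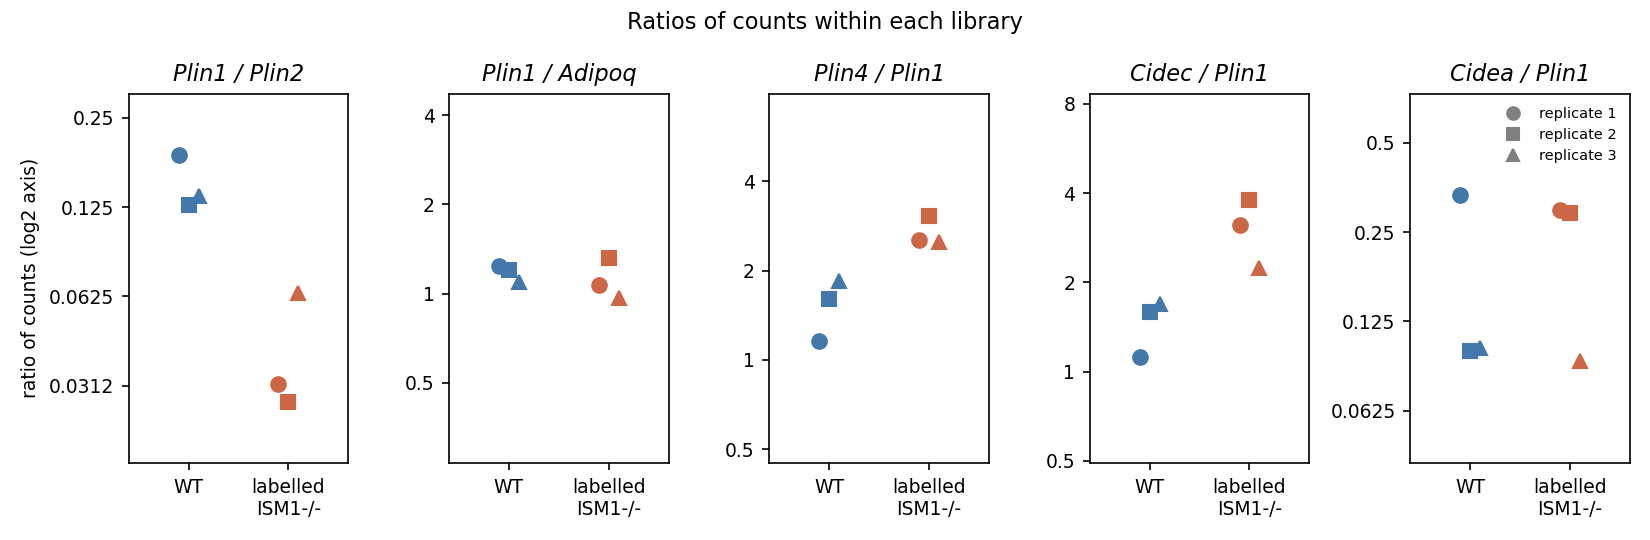
Ratios of raw counts within each library (y axes, log2 scale, each spanning the same fold range) for WT (blue) and libraries labelled ISM1-/- (orange), with marker shapes for replicate numbers. *Plin1* over *Plin2* separates the genotypes (0.127 to 0.187 against 0.028 to 0.064), *Plin1* over *Adipoq* does not, and *Plin4* and *Cidec* over *Plin1* are higher in the libraries labelled ISM1-/-.

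Levels of different genes can be compared only per length, and the deposited values give 2 scales for this. In the deposited FPKM (fragments scaled by gene length and by library total), the WT order was *Plin2* at 113, *Plin3* at 35.1, *Bscl2* at 25.1, *Cidec* at 18.3, *Fitm2* at 10.7, *Plin1* at 10.2, *Plin4* at 3.80, *Cidea* at 2.48 and *Plin5* at 1.98. The ranges of *Fitm2* (9.99 to 11.1 FPKM) and *Plin1* (8.66 to 12.7 FPKM) overlapped, and those of *Cidea* (1.06 to 5.25 FPKM) overlapped both *Plin4* and *Plin5*. In the libraries labelled *ISM1*-/-, *Plin1* was 2.73 FPKM and *Cidec* 9.73 FPKM, while *Plin2* was 112 FPKM. The length behind the FPKM was not the deposited gene length for most of the genes: 1444 against 4649 bases for *Plin1* and 861 against 3512 bases for *Plin2*, but 1164 bases in both for *Cidea*. Per kilobase of the deposited gene length, *Plin2* was 27.8 CPM, *Plin3* 19.5 CPM, *Cidec* 11.3 CPM, *Fitm2* 10.7 CPM, *Bscl2* 7.75 CPM, *Plin4* 3.79 CPM and *Plin1* 3.16 CPM in WT. On that scale the WT ranges of *Cidec* and *Fitm2* overlapped (10.7 to 11.96 and 9.99 to 11.1 CPM per kilobase), as did those of *Plin4* and *Plin1* (3.48 to 4.18 and 2.69 to 3.96). The places of *Bscl2*, *Cidec* and *Fitm2*, and of *Plin1* and *Plin4*, therefore turned on which length was used, whereas *Plin2* and *Plin3* led on both scales.

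**Figure D4:**
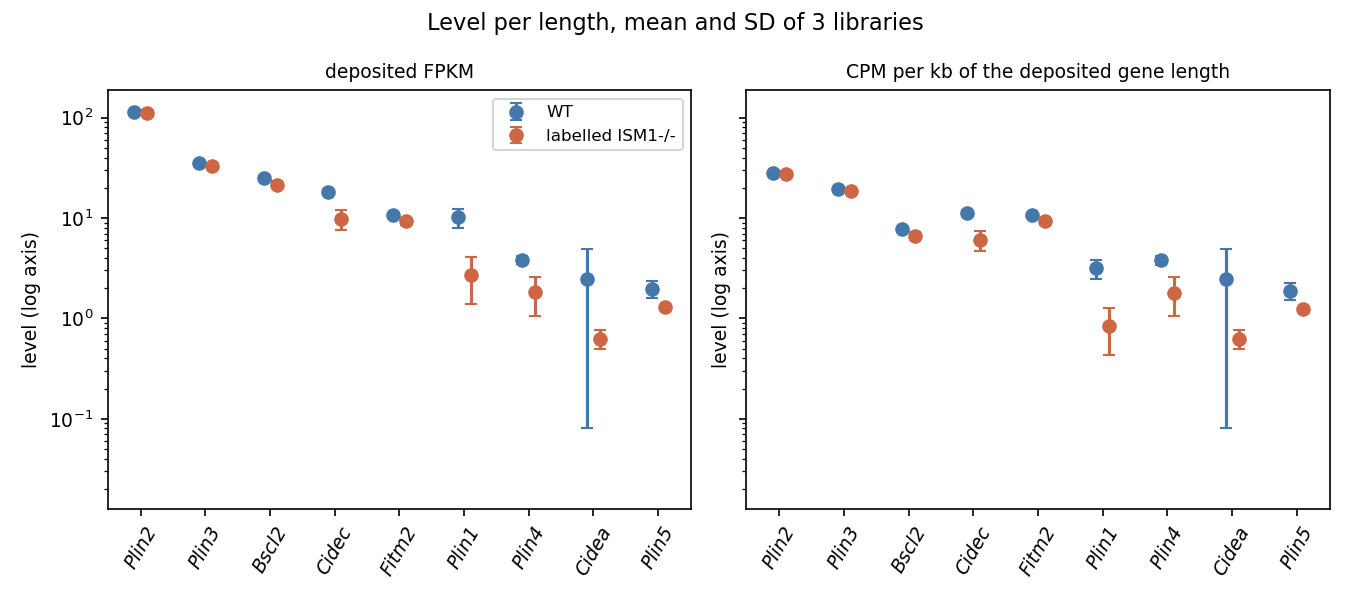
WT (blue) and labelled ISM1-/- (orange) levels per length as mean and SD of 3 libraries (y axes, log scale), in deposited FPKM on the left and CPM per kilobase of the deposited gene length on the right. *Plin2* is first on both scales (113 FPKM and 27.8 CPM per kilobase in WT), and *Plin1* lies above *Plin4* on the left and below it on the right.

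The sequences before the starts of 3 genes that passed the test together (*Plin1*, *Plin4*, *Cidec*) and of *Plin2*, which did not, are shown so that their promoters can be compared. They come from RefSeq on GRCm38.p6, and each runs 5′ to 3′ on the minus strand. The windows used here covered 8 of the 9 genes, and *Cidea* was not searched. Capitals mark CCAAT or its reverse complement ATTGG, and AGGTCA, the half-site bound by nuclear receptors, or its reverse complement TGACCT. The *Plin1* sequence, chr7:79732904-79733026, is the 123 bases before the deposited gene, and the 127 bases from there to the RefSeq start were searched but are not shown. The other windows are *Plin4* chr17:56109783-56110032, *Cidec* chr6:113435761-113436010 and *Plin2* chr4:86670060-86670309. The 4 sequences are:

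Plin1: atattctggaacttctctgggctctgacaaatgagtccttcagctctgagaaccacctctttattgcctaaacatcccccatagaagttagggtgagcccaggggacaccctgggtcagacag

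Plin4: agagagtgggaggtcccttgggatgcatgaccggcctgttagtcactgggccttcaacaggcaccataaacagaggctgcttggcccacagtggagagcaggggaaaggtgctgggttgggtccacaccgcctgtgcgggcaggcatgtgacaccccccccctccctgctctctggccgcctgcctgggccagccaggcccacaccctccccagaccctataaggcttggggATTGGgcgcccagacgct

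Cidec: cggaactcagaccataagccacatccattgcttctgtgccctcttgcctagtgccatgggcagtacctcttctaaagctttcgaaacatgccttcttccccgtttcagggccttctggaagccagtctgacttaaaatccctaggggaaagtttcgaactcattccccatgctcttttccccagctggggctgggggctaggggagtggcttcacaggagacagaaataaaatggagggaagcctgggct

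Plin2: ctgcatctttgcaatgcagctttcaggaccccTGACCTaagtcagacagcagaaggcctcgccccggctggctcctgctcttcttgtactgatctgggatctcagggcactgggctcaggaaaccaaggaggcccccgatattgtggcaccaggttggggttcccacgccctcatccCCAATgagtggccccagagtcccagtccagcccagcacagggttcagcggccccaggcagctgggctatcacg

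On both strands, the 250 bases before each RefSeq start were searched. *Plin2* held AGGTCA at 218 bases and CCAAT at 73 bases before the start. *Plin4* held CCAAT at 18 bases, and *Plin1* (all 250 bases) and *Cidec* held none of the letters searched. The RefSeq start of *Plin4* lay 21 bases inside the deposited gene, so that CCAAT stood inside the gene. AGGTCA was also found in *Plin5* and *Bscl2*, CCAAT in *Plin3*, *Plin5* and *Bscl2*, and GGGCGG in *Plin3*, *Plin5* and *Fitm2*. Each RefSeq start of a gene was counted, and *Cidec* and *Plin5* had 2 such starts and *Bscl2* 3. Matches per gene therefore cannot be set against the shares of single promoters given below. The *Plin3* start lay 2362 bases inside the deposited gene, and the *Bscl2* start with AGGTCA lay 1861 bases inside. AGGTCANAGGTCA, the direct repeat that PPAR with RXR is known to bind, was in none of the 8 genes and in 0.0335% of 32851 promoters. AGGTCA stood in 14.0% of these promoters, CCAAT in 33.8%, CACGTG in 6.02%, TATAAA in 12.4% and GGGCGG in 32.7%. AGGTCANAGGTCA contains AGGTCA, so those matches are not separate. A missing match says only that these letters are not in this window.

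Of 38 other lipid droplet genes listed, 34 were tested, 4 were lower at an adjusted p under 0.1 and none was higher. The share lower was 11.8%, beside 3.34% of all genes tested, and the other 30 did not pass. Of the 4, 1 was also lower by at least 2-fold, compared with 0.284% of all genes tested. The median log2 fold change of the 34 was -0.07. *Pnpla3*, an enzyme of the droplet surface related to adipose lipase, was lower by the largest factor of these genes: 4.90, 2.87 and 3.64 CPM in WT replicates 1 to 3 against 0.869, 0.632 and 1.26 CPM in the libraries labelled *ISM1*-/- (log2 fold change -2.04, SE 0.281, adjusted p = 0.0116, edgeR). The other 3 fell by less than 2-fold. *G0s2*, the inhibitor of adipose triglyceride lipase, had a log2 fold change of -0.47 (adjusted p = 0.0157, edgeR), *Acsl1*, which activates fatty acids for storage and oxidation, -0.34 (adjusted p = 0.0784) and *Dhrs3*, a droplet retinal reductase, -0.22 (adjusted p = 0.0792).

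The core lipolysis genes, picked for naming with their values known, did not pass: adipose triglyceride lipase (*Pnpla2*) had a log2 fold change of -0.20 (adjusted p = 0.110, edgeR), its activator *Abhd5* -0.06 (adjusted p = 0.706) and hormone-sensitive lipase (*Lipe*) -0.07 (adjusted p = 0.743). The relatives outside the 9 genes, named in the same way, did not pass either: *Cideb*, the CIDE gene of liver, had a log2 fold change of 0.06 (adjusted p = 0.953, edgeR) and *Fitm1*, the FIT gene of muscle, -0.83 (SE 0.562, adjusted p = 0.534). By list, 1 of 11 tested genes of droplet shaping and other CIDE or FIT genes was lower at an adjusted p under 0.1 (*G0s2*). So were 1 of 12 of triglyceride and sterol ester synthesis (*Acsl1*) and 2 of 11 of lipolysis and droplet enzymes (*Pnpla3* and *Dhrs3*). Over all genes, 3.34% passed that threshold in that direction. The list of PPAR targets, genes switched on by the nuclear receptors of that name, held neither the 9 droplet genes nor *Adipoq*, *Pck1* and *Ucp1*, which are known as PPAR targets too and are given with the fat markers. Of its 12 genes, 1 passed, *Fabp4*, the fatty acid carrier of fat cells, with a log2 fold change of -1.46 (adjusted p = 0.0327, edgeR), and the median was -0.16.

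**Figure D5:**
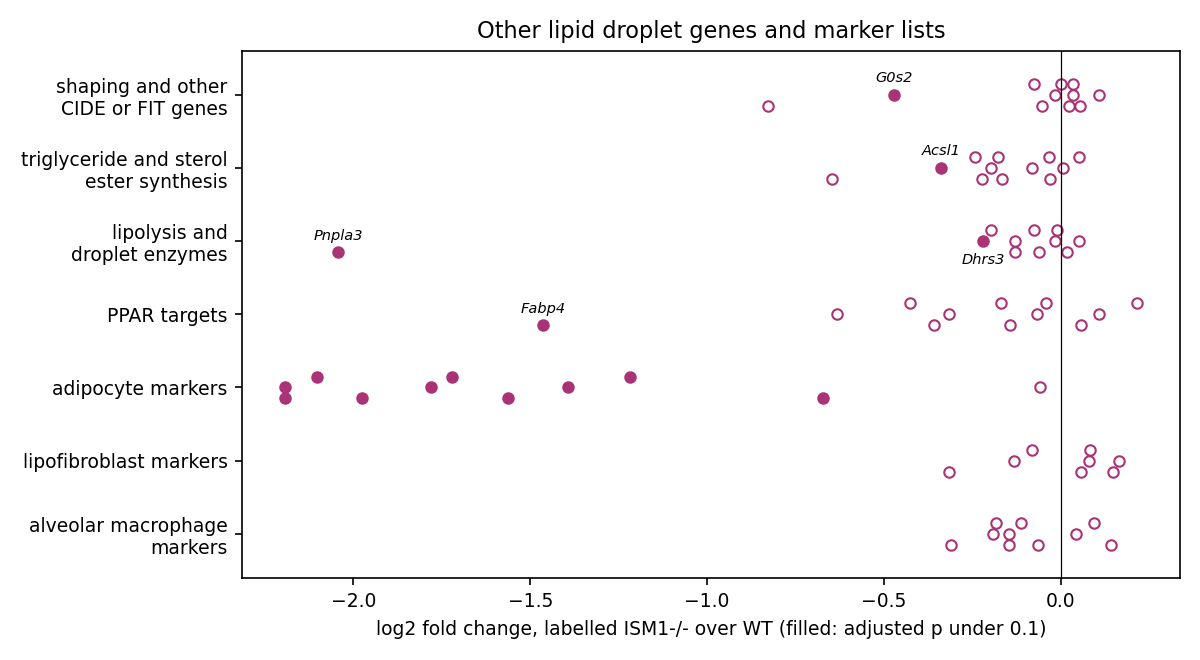
Log2 fold change, labelled ISM1-/- over WT (x axis), of each tested gene of 3 lists of other lipid droplet genes, of PPAR targets and of 3 marker lists (rows), filled where the adjusted p was under 0.1; vertical scatter inside a row has no meaning. *G0s2*, *Acsl1*, *Pnpla3*, *Dhrs3* and *Fabp4* are the named filled points, and 10 of 11 adipocyte markers are filled.

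Markers of fat cells moved with the adipocyte-restricted genes. Of 12 adipocyte markers, 11 were in the table and tested, and 10 were lower at an adjusted p under 0.1, with 9 of them at least 2-fold and a median log2 fold change of -1.72. Over all genes tested, 3.34% were lower at that adjusted p and 0.284% were also lower by at least 2-fold. Their summed level was 329, 254 and 303 CPM in WT replicates 1 to 3 and 83.9, 91.0 and 154 CPM in the libraries labelled *ISM1*-/-, and none of the 11 was at 0 in either genotype. *Adipoq* had a log2 fold change of -1.72 (adjusted p = 0.0343, edgeR), leptin (*Lep*) -2.19 (adjusted p = 0.0484) and resistin (*Retn*) -1.39 (adjusted p = 0.0817). The other markers that passed were *Cfd* at -2.10, *Pck1* at -2.19, *Aqp7* at -1.98, *Car3* at -1.78, *Acvr1c* at -1.56, *Slc2a4* at -1.22 and *Gpd1* at -0.67 on the log2 scale. *ISM1*-/- replicate 3 had the highest summed level of its group, as it had for *Plin1*, *Plin4* and *Cidec*. The part of fat tissue in the difference of these genes was not tested.

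WT replicate 1, the library with the most *Cidea*, also had the highest summed level of adipocyte, brown fat, heart and skeletal muscle markers. It was the highest library for 12 of 12 cardiomyocyte and 9 of 11 adipocyte markers. Among the skeletal muscle markers, named with their values known, this held for *Ckm*, *Tnnt3* and *Myh1* (7 counts in each WT library). *Acta1*, *Myh2*, *Mylpf* and *Tnni2* were highest in other libraries, and *Myh4* had 0 counts in all 6 libraries. For brown fat it held for 5 of 9 markers. *Prdm16*, *Dio2*, *Ppargc1a* and *Cpt1b*, named with their values known, were highest in other libraries. *Ucp1*, the uncoupling protein that defines brown fat, measured 6.15, 0.048 and 0.62 CPM in WT replicates 1 to 3 and 0.117, 0.105 and 0.077 CPM in the libraries labelled *ISM1*-/- (adjusted p = 0.139, edgeR). Of 9 brown fat markers, 7 were tested and 1 passed, *Cox8b* at -1.13 on the log2 scale (adjusted p = 0.0538, edgeR). The summed level was 80.2, 70.7 and 69.4 CPM in WT replicates 1 to 3 and 59.6 to 68.6 CPM in the libraries labelled *ISM1*-/-. *Prdm16* alone gave 48.3, 53.9 and 49.0 CPM of the WT sums and 46.3 to 49.4 CPM of the others, so the sums mostly followed that gene. The 12 cardiomyocyte markers summed to 1869, 623 and 738 CPM in WT and 336, 468 and 665 CPM in the libraries labelled *ISM1*-/-. Each of the 12 was lower in mean and 1 passed, *Myl7*, an atrial myosin light chain, at -1.11 (adjusted p = 0.0970, edgeR). Of 8 skeletal muscle markers, 4 were tested and 1 passed, *Tnnt3* at -0.81 (adjusted p = 0.0710, edgeR). The sums were 14.4 to 24.4 CPM in WT and 8.65 to 13.3 CPM in the libraries labelled *ISM1*-/-. The largest part was *Ckm*, at 15.9, 7.49 and 7.67 CPM in WT and 3.78, 6.77 and 7.38 CPM in the others. Of the 4 tested, 3 were lower in mean, and *Mylpf* was higher (1.19 CPM in WT against 1.59 CPM). *Plin5* is known from heart and brown fat as well, and the part of these tissues in the *Cidea* and *Plin5* values was not tested.

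Both WT replicate 1 and *ISM1*-/- replicate 3 were also left out, a setting chosen after seeing the data. Then 3 of the 9 genes were called lower, compared with 0.56% of all genes in that setting. The log2 fold changes were -2.18 for *Plin1*, -1.48 for *Plin4* and -1.10 for *Cidec*, and *Cidea* was at -0.63 (adjusted p = 0.223, edgeR). *ISM1*-/- replicate 3 was the highest of its group for *Plin1*, *Plin4* and *Cidec*, so its omission had to widen those differences.

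Markers of the lung cells that are known to hold lipid did not pass the test. None of 8 lipofibroblast markers passed, with a median log2 fold change of 0.07 and summed levels of 3931 to 4175 CPM in WT and 4137 to 4253 CPM in the libraries labelled *ISM1*-/-. None of 10 alveolar macrophage markers passed (median -0.13, sums of 703 to 790 CPM in WT and 654 to 757 CPM in the libraries labelled *ISM1*-/-). None of 8 markers of alveolar type 2 cells, the makers of surfactant lipid, passed (median -0.05, sums of 23708 to 24107 CPM against 22517 to 23662 CPM), and their level shows the labelled tissue to be lung.

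The genes whose pattern over the 6 libraries was most like that of a droplet gene were ranked by Pearson's r of log2 CPM among 15867 candidates averaging 1 CPM or more. The rank is a description: the 6 libraries are split by genotype, and a split alone gives a high r. For *Plin1* they were *Cpe*, *Tmem45b*, *Fam149a*, *Cfap45* and *Cxxc4* (r from 0.997 to 0.994). Of these 5, only *Tmem45b* also fell at least 2-fold at an adjusted p under 0.1 (log2 fold change -2.06, adjusted p = 0.0222, edgeR). For *Plin2* they were *Tspan5*, *Gm47483*, *Tbx6*, *Psmg2* and *Pde9a* (r from 0.979 to 0.958). None of the 5 for *Plin2* passed the test between genotypes.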

How the data were processed

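Libraries were poly-A enriched and directional. Per the study's methods, the authors filtered reads by quality and for adaptor sequence, aligned them as pairs to GRCm38 (mm10) with STAR and deposited raw counts per gene. The counting program, annotation release and strand setting are not given in the sources used here. The authors also deposited FPKM, used here for levels per length and for alternatives. Columns were matched to the labels by name.

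The deposited counts went into edgeR 4.0.16 (R 4.3.3). Libraries were scaled by TMM, and genotypes were compared by the quasi-likelihood test with Benjamini-Hochberg adjustment over 18689 genes. A gene was called at an adjusted p under 0.1 and at least 2-fold. The script was tested on simulated data. Alternatives used DESeq2 1.42.0, limma 3.58.1 on log2(FPKM + 0.1), other scalings and filters, a replicate block and the omission of each library. The genes and lists were chosen with earlier results of these data known. Nothing in the labels beyond the replicate number separates animals of a group, so p-values measure the spread between these samples.

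Genes named were the 9 droplet genes, genes that overlap them, *Ism1*, genes of the lists with an adjusted p under 0.1, the first 3 markers of a list where relevant, and the 5 genes most like *Plin1*, *Cidea* and *Plin2*; those for *Cidea* are not reported here. Genes named outside this rule are said to be so.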

Additional observations from a re-analysis of the deposited data

How the results depend on the processing

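*Plin1* and *Cidec* kept their direction and their side of the adjusted p of 0.1 in each of 14 alternatives, with log2 fold changes from -2.37 to -1.68 and from -1.10 to -0.75. Of 125 values over the 9 genes and the alternatives, 114 kept direction and side, 4 lost the adjusted p, 6 gained it and 1 changed sign. The 4 losses were *Plin4*, each time with 1 library left out. *Plin5* passed with DESeq2 (adjusted p = 0.0868) and with no filter on low counts (adjusted p = 0.0566), where *Cidea* also passed (adjusted p = 0.000559); the cause was not tested. The sign change was *Plin2*, which ranged from -0.060 to 0.052 on the log2 scale when single libraries were left out and was above 0 without ISM1-/- replicate 1. *Fitm2* passed without ISM1-/- replicate 3 and without that library and WT replicate 1 (adjusted p = 0.0517). *Cidea* gave no value with a mean above 2 CPM, since it was then not tested.

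Of the 9 genes, 2 were called. This count ranged from 1 to 3 when single libraries were left out, with 1 without WT replicate 2 or 3 or ISM1-/- replicate 1 or 2. Of other lipid droplet genes 1 was called, or 4 with no fold minimum. Over all genes 106 were called, 37 with a mean above 2 CPM, 293 with no filter, 51 at an adjusted p under 0.05, 882 with no fold minimum, 238 without both WT replicate 1 and ISM1-/- replicate 3, and 31 to 188 when single libraries were left out. The *Plin1* to *Plin2* difference ranged from -2.32 to -1.72 on the log2 scale when single libraries were left out.

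Mice with the same replicate number are not described as paired, and their deviations from group means correlated at -0.04, 0.03 and 0.0010, where not every library correlated best with its own number. With a replicate block, 130 of all genes and 3 of the 9 were called, *Cidea* being added (log2 fold change -1.68, adjusted p = 0.0597), and the *Plin1* to *Plin2* difference of -1.95 had an exact p of 0.25, the smallest possible. At 22 to 230 counts per library *Cidea* was on average the least counted of the 9, and 3 libraries a group limit what could be detected.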

Other observations

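Among the adipocyte markers, *Adrb3*, the beta-adrenergic receptor known from fat cells, did not pass the test. It measured 20.8, 18.4 and 15.4 CPM in WT replicates 1 to 3 and 19.2, 16.2 and 16.9 CPM in the libraries labelled *ISM1*-/- (log2 fold change -0.06, adjusted p = 0.865, edgeR), so its groups overlapped while the other 10 markers were lower. *Dgat2*, which makes triglyceride and was picked here with its values known, measured 32.9, 18.5 and 17.1 CPM in WT and 12.8, 15.1 and 15.8 CPM in the libraries labelled *ISM1*-/- (log2 fold change -0.65, adjusted p = 0.172, edgeR). Its highest library was WT replicate 1, as for *Cidea* and *Ucp1*.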
